A study of Mus musculus with 4 samples.

Results

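The 10 genes described here are the antioxidant enzymes and metallothioneins Hmox1, Nqo1, Gclm, Gclc, Mt1, Mt2, Txnrd1, Srxn1, Sod2 and Cat, chosen by gene name from a table of 48432 gene rows. Each name matched 1 row, and all 10 passed a minimum mean of 1 FPKM over the groups, as did 11697 genes in all. RNA came from cardiomyocytes, the muscle cells of the heart, which had been released from mouse hearts by enzyme perfusion. Of the 4 libraries, 2 came from mice whose genotype label is MHC (the MHC control) and 2 from mice labelled RbFox2, which overexpress the splicing regulator RBFOX2 (Rbfox2 OE). All mice were C57BL x FVB and ate a doxycycline diet for 3 days, so the controls had received the drug as well. The labels name no promoter, copy number, sex or age, and do not say whether animals were pooled.

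The authors' table gave 1 FPKM value per gene and group (fragments divided by transcript length and by the number of mapped fragments), and placed bounds around it. Values per library were not analysed here, so the spread between the 2 libraries of a group is unknown and no test between the groups could be made. Ranges in parentheses after a value are the authors' bounds, whose level is not given in the sources used here. "Separate" means that the bounds of the groups did not overlap. Differences are given as log2((Rbfox2 OE + 1) / (MHC + 1)), called the log2 ratio; the added 1 FPKM makes the change of weakly expressed genes look smaller than it was. Rbfox2 itself stood at 14.7 FPKM in MHC cells and 293 FPKM in Rbfox2 OE cells, in the direction of the labels. The cardiomyocyte label was met by high cardiac transcripts, with Myl2 at 24688 FPKM and Tnnt2 at 10609 FPKM in the control. Myh6 and Mb were listed at 0 in both groups with the status HIDATA, which Cuffdiff gives where fragments are too many to be estimated. Over all genes the MHC values added up to 512908 FPKM and the Rbfox2 OE values to 446802 FPKM, and the depth in reads is unknown.

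Cells meet reactive oxygen species with several enzyme systems. Superoxide dismutases turn superoxide into hydrogen peroxide, which catalase and the glutathione and thioredoxin systems remove. Many of the supporting genes are induced by the transcription factor NRF2 (gene Nfe2l2), which is held back by KEAP1 and binds antioxidant response elements. Metallothioneins are small cysteine-rich proteins that bind zinc and copper, and are induced through metal response elements by the zinc-sensing factor MTF1. The heart depends on mitochondrial respiration, and these defences are much studied in heart failure.

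The sequence before the Mt2 start is shown because Mt2 had the largest ratio of the 10 genes and its window holds both kinds of element. It is the 250 bases before the RefSeq start on GRCm38.p6, chr8:94172368-94172617, plus strand. Capitals mark matches to the antioxidant response element core TGACNNNGC and to the metal response element cores TGCACNC and TGCGCNC, searched on both strands.
Mt2: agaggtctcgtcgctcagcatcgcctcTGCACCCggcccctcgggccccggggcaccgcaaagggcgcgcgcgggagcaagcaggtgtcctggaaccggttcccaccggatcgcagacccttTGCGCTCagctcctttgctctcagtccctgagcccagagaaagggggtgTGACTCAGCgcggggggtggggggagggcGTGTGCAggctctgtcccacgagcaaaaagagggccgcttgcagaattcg
The metal response element cores lay at -223 to -217, -128 to -122 and, on the opposite strand, -50 to -44 from the start. The antioxidant response element core lay at -79 to -71 and overlapped none of them. At least 1 metal response element core was found in 21.4% of the 32851 RefSeq promoter windows of this length, and at least 3 in 1.26%. The antioxidant response element core was found in 10.2%. The Mt2 window was picked because it holds both kinds of element, so these shares do not measure its rarity.

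Mt1 lies 5513 bases downstream of Mt2 on the same strand. Its RefSeq window, chr8:94178839-94179088, held 1 metal response element core at -23 to -17 and no antioxidant response element core. GENCODE M21 gives Mt1 further starts 122 and 152 bases downstream of the RefSeq start, so that window does not cover the bases before them. The 129 bases before the nearer of these starts are in the first exon of the Mt1 transcript that starts farthest upstream and were searched after this was seen. They held 4 metal response element cores and 1 antioxidant response element core. Of the RefSeq windows, 0.0791% held at least 4 metal response element cores in their last 129 bases, and 6.04% an antioxidant response element core. Those bases lie before RefSeq starts. The Mt1 stretch lies mostly after its RefSeq start and was picked for this gene alone, so these shares do not measure its rarity. GENCODE M21 also gives Mt2 starts 46 and 242 bases downstream of its RefSeq start, and the bases from the RefSeq start to those were not searched. A 30-base stretch of that exon from the GENCODE transcript sequence, chr8:94179169-94179198, is shown with 2 of the metal response element cores in capitals.
Mt1: tgctGGGTGCAaacccttTGCGCCCggact
Both metallothionein genes thus have such matches close to an annotated start. A match describes the letters only, and no binding was measured.

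Gclm and Txnrd1 also held an antioxidant response element core, on the strand opposite to the gene. Both are shown in windows of 40 bases with the match in capitals, chr3:122245407-122245446 for Gclm and chr10:82859098-82859137 for Txnrd1, GRCm38.p6, plus strand.
Gclm: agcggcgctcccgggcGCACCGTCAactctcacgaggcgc
Txnrd1: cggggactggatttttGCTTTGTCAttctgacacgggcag
The Gclm match lay at -134 to -126 from the start and overlapped a metal response element core at -138 to -132; a second such core lay at -72 to -66. The Txnrd1 match lay at -92 to -84 from 1 of its 3 RefSeq starts. Srxn1 held 1 metal response element core at -19 to -13, and Nqo1, Sod2 and Cat held no match in this window. Variants of these cores and bases farther upstream were not searched, so a missing match does not mean that a gene lacks such elements. The promoter table gave entries for 8 of the 10 genes, all but Hmox1 and Gclc.

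The metallothioneins were the most abundant of the 10 genes in Rbfox2 OE, and both were higher there than in the control. Mt1 (chromosome 8, 94179082 to 94180327, plus strand, GRCm38) stood at 510 FPKM (362 to 657) in MHC cells and 1046 FPKM (730 to 1363) in Rbfox2 OE cells. The ratio was 2.05 and the log2 ratio 1.04, with bounds that were separate by a factor of 1.11. Mt2 (chromosome 8, 94172664 to 94173568) stood at 122 FPKM (84.6 to 159) in MHC cells and 613 FPKM (406 to 820) in Rbfox2 OE cells. Its ratio was 5.04 and its log2 ratio 2.32, and the bounds were apart by a factor of 2.56.

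The differences in FPKM were close, 537 for Mt1 and 492 for Mt2, from unequal control levels. Mt1 exceeded Mt2 4.19 times in the control and 1.71 times in Rbfox2 OE, on the FPKM scale. The ranges of the log2 ratio that the bounds allow overlapped, 0.15 to 1.91 for Mt1 and 1.35 to 3.26 for Mt2, and the difference between the genes was not tested. Their sum was 632 FPKM in MHC cells and 1660 FPKM in Rbfox2 OE cells. By FPKM, Mt1 ranked 141 among all genes in the control and 50 in Rbfox2 OE, and Mt2 ranked 604 and 102. These ranks leave out the genes with the status HIDATA, 30 in the control and 26 in Rbfox2 OE, which are listed at 0. Annotated transcripts of Mt1 and Mt2 shared 0 of their 50-base sequences. An antisense gene, Gm45774, overlaps Mt2 in GENCODE M21, and the use of strand in counting is not given in the sources used here.

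**Figure D1:**
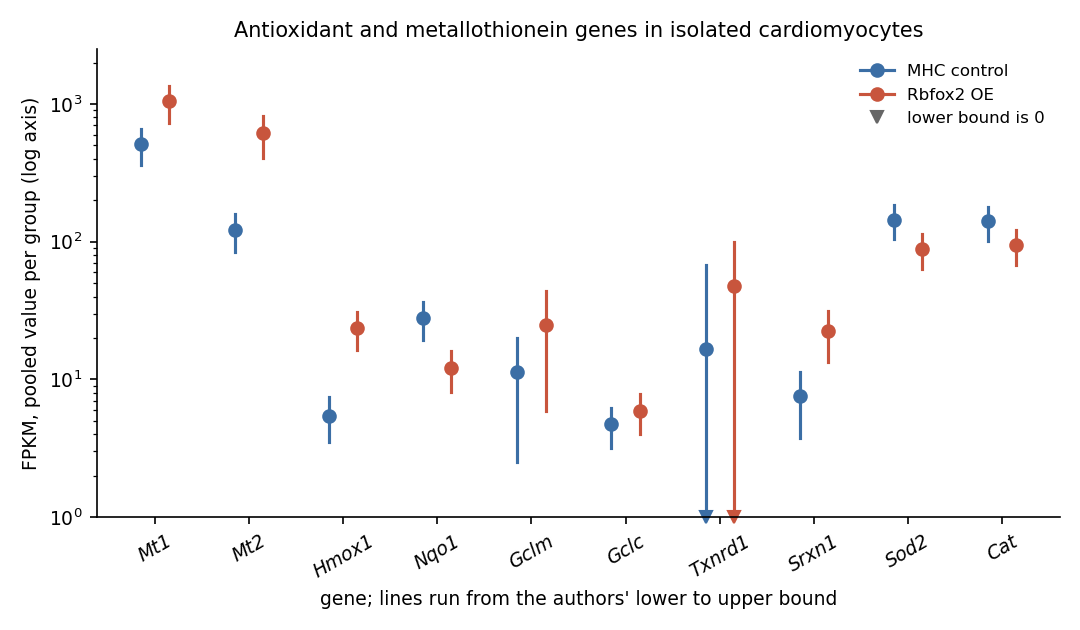
Pooled FPKM of the 10 genes in MHC control (blue) and Rbfox2 OE (red) on a log axis, 1 point per gene and group, with lines from the authors' lower to upper bound and triangles where the lower bound is 0. The lines of Mt1, Mt2, Hmox1, Nqo1 and Srxn1 do not overlap between the groups (as in 16% of all genes compared), while those of Txnrd1 reach 0 in both.

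Hmox1 encodes the inducible heme oxygenase, which breaks heme down to biliverdin, carbon monoxide and iron. Hmox1 (chromosome 8, 75093621 to 75100589, plus strand) stood at 5.47 FPKM (3.51 to 7.42) in MHC cells and 23.8 FPKM (16.4 to 31.1) in Rbfox2 OE cells. The ratio was 4.35 and the log2 ratio 1.94, at or above 98.7% of the genes compared, and the bounds were apart by a factor of 2.21. Nqo1, a quinone reductase that uses NADH or NADPH and is a widely used NRF2 target, lay the other way. Nqo1 (chromosome 8, 107388225 to 107403206, minus strand) stood at 28.0 FPKM (19.4 to 36.5) in MHC cells and 12.1 FPKM (8.16 to 16.0) in Rbfox2 OE cells. The control value was 2.32 times the Rbfox2 OE value, the log2 ratio was -1.15, and the bounds were separate by a factor of 1.22.

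The thioredoxin branch was represented by Srxn1 and Txnrd1. Srxn1, sulfiredoxin, repairs over-oxidised peroxiredoxins. Srxn1 (chromosome 2, 152105516 to 152111376, plus strand) stood at 7.52 FPKM (3.77 to 11.3) in MHC cells and 22.4 FPKM (13.4 to 31.3) in Rbfox2 OE cells, a ratio of 2.97 and a log2 ratio of 1.45 with separate bounds. Txnrd1, the cytosolic thioredoxin reductase, had a nearly equal log2 ratio of 1.46, with bounds that reached 0. Txnrd1 (chromosome 10, 82833951 to 82897712, plus strand) stood at 16.6 FPKM (0 to 67.8) in MHC cells and 47.6 FPKM (0 to 100.4) in Rbfox2 OE cells. The distance from value to upper bound was 308% of the value in MHC cells and 111% in Rbfox2 OE cells, against a median of 38.4% and 39.3% over all genes compared. The gene has 8 annotated transcripts and shares its locus in the table with Eid3, which was at 0.0721 and 1.61 FPKM.

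Glutamate-cysteine ligase makes the first step of glutathione synthesis, with Gclc as the catalytic and Gclm as the modifier subunit. Gclm (chromosome 3, 122245557 to 122270732, plus strand) stood at 11.3 FPKM (2.52 to 20.1) in MHC cells and 24.9 FPKM (5.91 to 43.9) in Rbfox2 OE cells, a log2 ratio of 1.07 with overlapping bounds. The table places Gclm in 1 locus with 9 other genes, among them Dnttip2, which stood at 21.97 and 46.59 FPKM. Gclc (chromosome 9, 77754535 to 77794485, plus strand) stood at 4.70 FPKM (3.17 to 6.24) in MHC cells and 5.93 FPKM (4.03 to 7.82) in Rbfox2 OE cells, a log2 ratio of 0.28 with overlapping bounds. The quotient of Gclm over Gclc was 2.402 in the control and 4.202 in Rbfox2 OE.

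Sod2, the manganese superoxide dismutase of mitochondria, and Cat, the peroxisomal catalase, were abundant and had lower values in Rbfox2 OE, with overlapping bounds. Sod2 (chromosome 17, 13006846 to 13040063, plus strand) stood at 144 FPKM (104 to 184) in MHC cells and 88.1 FPKM (63.3 to 113) in Rbfox2 OE cells, a log2 ratio of -0.70. Cat (chromosome 2, 103453849 to 103485160, minus strand) stood at 140 FPKM (101 to 180) in MHC cells and 95.2 FPKM (68.0 to 122) in Rbfox2 OE cells, a log2 ratio of -0.55. Their precision was among the best of the 10 genes, with upper bounds between 27.9% and 28.6% above the values. A difference of this size was not resolved by those bounds.

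The order of the levels changed between the groups. In the control Mt1 was highest, above Sod2, Cat and Mt2, whose bounds overlapped one another, and above all the rest. In Rbfox2 OE Mt1 and Mt2 led with overlapping bounds, and both had bounds clear of Cat and Sod2. Gclc was lowest in both groups, next to Hmox1 in the control, where their bounds overlapped, and next to Nqo1 in Rbfox2 OE, where they did not.

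**Figure D2:**
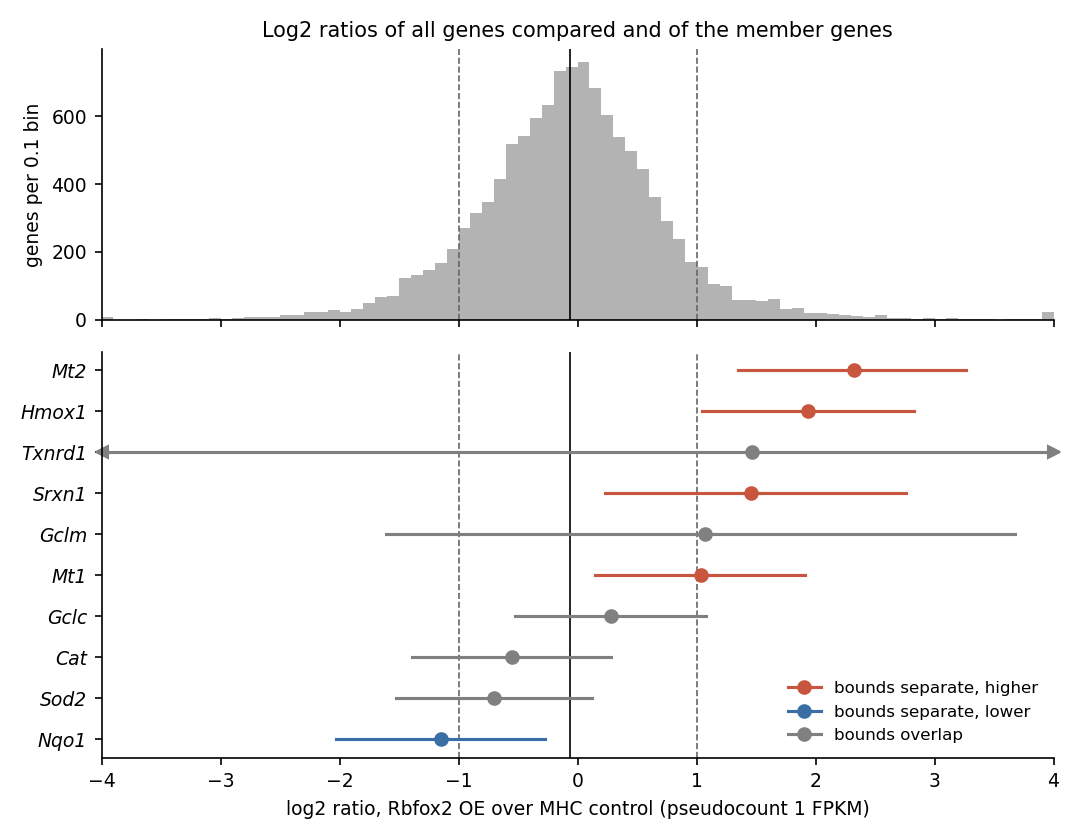
Top, histogram of the log2 ratio (Rbfox2 OE over MHC) for the 11697 genes compared (values beyond 4 in size are placed in the end bins). Bottom, the 10 genes, with points at the log2 ratio and lines from the nearest to the farthest pair of bounds (arrows run past the axis); the solid line is the median of all genes and the dashed lines are 2-fold. Mt2 at 2.32 and Hmox1 at 1.94 have lines wholly above 1, and Nqo1 at -1.15 is the lowest.

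By the 2-fold threshold, 6 of the 10 genes were higher in Rbfox2 OE (Hmox1, Gclm, Mt1, Mt2, Txnrd1 and Srxn1), 1 was lower (Nqo1) and 3 were under it. Among all genes compared 6.97% were at least 2-fold higher, 10% at least 2-fold lower and 17% either. By separate bounds, 4 were higher (Hmox1, Mt1, Mt2 and Srxn1), 1 was lower and 5 overlapped, against 6.67% higher, 9.33% lower and 16% either among all genes. The median log2 ratio of the 10 genes was 1.06, against -0.06 for all genes. The genes were picked with earlier results of these data known, and these shares carry no test. Rescaling the groups on the sum without mitochondrial and the 10 most abundant genes shifted every log2 ratio of a well-expressed gene upward by about 0.16. The 2-fold split over all genes then changed from 815 higher and 1172 lower to 1060 higher and 913 lower. The same members passed each criterion under that scaling.

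Markers of other cells differed between the same groups, and the share of RNA from each cell type is part of every comparison in such a preparation. Of 12 macrophage and leukocyte markers, 11 had separate bounds on the higher side and 0 on the lower side, against 6.67% and 9.33% of all genes. The sum of the 12 was 123 FPKM in MHC cells and 442 FPKM in Rbfox2 OE cells, and none was at 0. The lysozyme gene Lyz2 stood at 41.3 and 169.7 FPKM. Of 8 fibroblast markers 5 were higher with separate bounds (sum 213 and 504 FPKM), of 8 endothelial markers 3 (sum 281 and 490 FPKM) and of 7 smooth muscle and pericyte markers 3 (sum 142 and 321 FPKM). In the red blood cell list, 4 of the 5 genes compared were higher with separate bounds (sum of the list 56.7 and 296 FPKM), with Slc4a1 at 0 in the control. Of 12 cardiomyocyte markers, 10 were compared and 4 were lower with separate bounds. Ttn alone had a higher value, at 166 and 252 FPKM with overlapping bounds. The list summed to 60712 FPKM in MHC cells and 38449 FPKM in Rbfox2 OE cells. That sum counts Myh6 and Mb as 0, since they have the status HIDATA, and Myl2 gave 24688 and 18007 FPKM of it. The part of each cell type in the values of Hmox1, Nqo1, the metallothioneins and the other genes was not tested. In these bulk samples fewer cells of a type and less RNA per cell cannot be told apart.

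Genes of the connected pathways were taken from lists of 106 genes in all, of which 102 were compared. Separate bounds on the higher side were found for 11 (10.8%) and on the lower side for 7 (6.86%), against the shares of 6.67% and 9.33% over all genes. Their median log2 ratio was 0.00058. The share with separate bounds in either direction, 17.6%, was thus close to the 16% of all genes. Single lists differed, with medians from -0.48 to 1.31, and the genes that stood apart are named list by list.

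The regulators of the response showed no separate bounds, 0 of 9, against 16% of all genes. A list of 9 is too short to tell these shares apart. By value 7 of the 9 were higher, against 46.2% of all genes, while Nfe2l1 and Sqstm1 were lower. The median log2 ratio was 0.34, against -0.06 for all genes, with no test of the list. Nfe2l2 stood at 41.8 FPKM (29.5 to 54.2) in MHC cells and 59.1 FPKM (41.9 to 76.4) in Rbfox2 OE cells. Its inhibitor Keap1 stood at 24.5 and 28.5 FPKM, and Bach1, a repressor that competes for the same elements, at 7.48 and 9.72 FPKM. In the list of zinc and copper genes, 1 of 12 compared had separate bounds, on the higher side (8.33%, near the 6.67% of all genes). This was Slc39a8, a zinc importer of the ZIP family, at 1.28 FPKM in MHC cells and 6.26 FPKM in Rbfox2 OE cells, a ratio of 4.91. Mtf1 stood at 3.81 and 3.52 FPKM, the zinc exporter gene Slc30a1 at 5.19 and 5.17 FPKM and the third metallothionein Mt3 at 2.51 and 2.55 FPKM. Mt4 was listed at 0 in both groups. Mt3 and Slc30a1 were picked after values were seen, and their values were nearly equal between the groups. Their bounds overlapped and were wide enough to allow a 2-fold change in either direction. By value 7 of the 12 genes compared in this list were higher. The difference between these genes and Mt1 and Mt2 was not tested.

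Among the other NRF2 target genes, 2 of 18 compared were higher with separate bounds (11.1%, against 6.67% of all genes). On the lower side there was 1 (5.56%, against 9.33%), so the list was near the shares of all genes. Tkt, transketolase of the pentose phosphate pathway, stood at 7.55 and 19.0 FPKM, and Akr1b8, an aldo-keto reductase, at 2.10 and 5.52 FPKM. Aox1, aldehyde oxidase, stood at 6.28 and 2.77 FPKM. The list had a median log2 ratio of 0.08, so that Hmox1 and Srxn1 lay well above most of it and Nqo1 below all of it. In the heme and iron list 0 of 11 had separate bounds, against 16% of all genes, and the list is too short to tell these shares apart. The ferritin genes Fth1 and Ftl1, which store iron, stood at 2446 and 3143 FPKM and at 250.2 and 442 FPKM, and the constitutive heme oxygenase Hmox2 at 52.5 and 30.8 FPKM.

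Of 25 glutathione enzymes compared, 2 were higher (8%) and 2 lower (8%) by separate bounds, near the 6.67% and 9.33% of all genes. By the 2-fold threshold 4 were higher and 2 lower, against 6.97% and 10% of all genes. Of the 4 higher, Gpx1 and Ggt5 had overlapping bounds. The median log2 ratio of -0.03 turned to 0.12 on rescaling. Gsr, glutathione reductase, stood at 7.33 FPKM (4.96 to 9.70) in MHC cells and 16.2 FPKM (11.2 to 21.1) in Rbfox2 OE cells. Gpx3, a secreted glutathione peroxidase, stood at 163 and 376 FPKM. Glrx3, a glutaredoxin involved in iron-sulfur handling, stood at 72.1 FPKM (49.7 to 94.5) in MHC cells and 24.3 FPKM (16.4 to 32.3) in Rbfox2 OE cells. Chac1, which degrades glutathione, stood at 4.58 and 1.25 FPKM.

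In the thioredoxin, peroxiredoxin, sestrin and methionine sulfoxide reductase list, 4 of 18 were lower by separate bounds (22.2%, against 9.33% of all genes) and 1 was higher (5.56%, against 6.67%). Its median log2 ratio was -0.48, against -0.06 for all genes, with no test of the list. The gene on the higher side was Txn1, thioredoxin itself and the substrate of Txnrd1, at 23.3 FPKM (15.9 to 30.8) in MHC cells and 48.8 FPKM (33.9 to 63.6) in Rbfox2 OE cells. Of the 4 lower genes, 3 reduce oxidised methionine in proteins. Msra stood at 52.6 FPKM (35.8 to 69.4) in MHC cells and 13.8 FPKM (9.001 to 18.5) in Rbfox2 OE cells, Msrb2 at 50.9 and 20.5 FPKM and Msrb3 at 41.5 and 20.5 FPKM. The other was Sesn1, a sestrin, at 71.7 and 37.7 FPKM. All 6 peroxiredoxin genes had overlapping bounds, with log2 ratios from -0.65 for Prdx6 to 0.12 for Prdx4. In the superoxide dismutase list, 0 of 3 had separate bounds, against 16% of all genes, and the list is too short to tell these shares apart. The cytosolic Sod1 stood at 412 and 423 FPKM.

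Among the pathway lists, that of sources of reactive oxygen species had the largest share of separate bounds. These were 5 of 8 compared (62.5%), all on the higher side, against 6.67% of all genes. The median log2 ratio of the list was 1.31. Cybb, the catalytic subunit of the phagocyte NADPH oxidase, stood at 0.889 FPKM in MHC cells and 4.14 FPKM in Rbfox2 OE cells. Its cytosolic partners Ncf1 and Rac2 stood at 0.997 and 3.83 FPKM and at 0.717 and 4.16 FPKM. Another was Xdh, xanthine dehydrogenase, at 21.7 and 49.8 FPKM, named beyond the limit of 4 genes per list. Cybb and its partners are phagocyte genes, and the macrophage and leukocyte markers given above were higher in the same libraries, with a sum ratio of 3.58. Their part in this list was not tested.

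**Figure D3:**
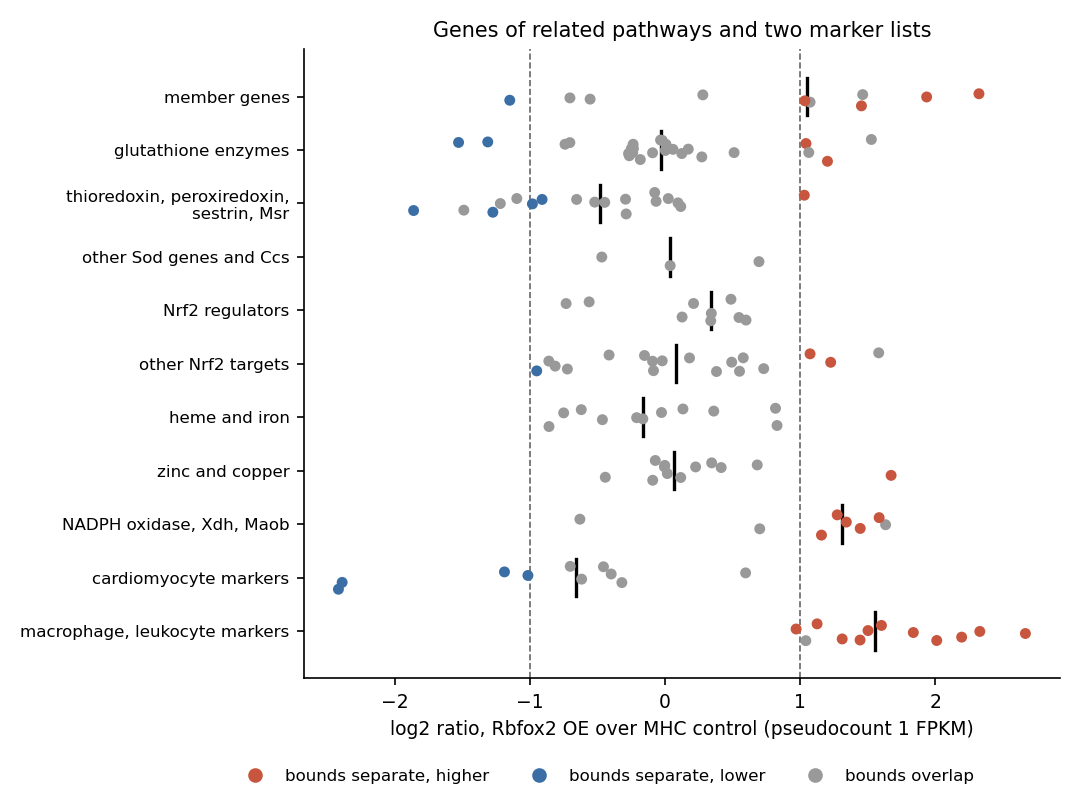
Log2 ratios (Rbfox2 OE over MHC) for the compared genes of each list, 1 point per gene (vertical scatter within a row has no meaning), coloured by whether the authors' bounds are separate, with black bars at the list medians and dashed lines at 2-fold. The Nrf2 regulators and the heme and iron genes have overlapping bounds throughout, and 11 of the 12 macrophage and leukocyte markers lie on the higher side with separate bounds. Of all genes compared, 16% have separate bounds.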

How the data were processed

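The authors' deposited table holds FPKM values from Cuffdiff, per the file headers, with 1 value for each gene in each group. The other deposited columns hold the bounds of these values, in the same unit. The submitters' processing notes name bcl2fastq 2.17.1.14, Trimmomatic, STAR 2.4.2a, Picard 1.119, HTSeq, DESeq2, Cuffdiff 2.2.1 and GRCm38 (mm10); their roles, the annotation and the normalization mode are not given in the sources used here. Each value pools 2 libraries (0 per-library columns were left unused). The design called for limma on values per library; with 1 value per group no test was made.

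From the FPKM values, log2 ratios were computed with a pseudocount of 1 FPKM, over the genes whose mean reached 1 FPKM, using Python 3.11.15 and pandas 2.3.3. Rows sharing a name (110 names) were summed. The calculation was tested on simulated data. Coordinates are from GENCODE M21 (GRCm38), which held 99.22% of the gene identifiers; promoters are from RefSeq, GRCm38.p6. Members, lists and tests were chosen with earlier results of these data known. All 10 members are named, and of each pathway list up to 4 genes with separate bounds, by size of log2 ratio, plus other genes picked after values were seen. Some genes of the lists are not reported here. Depth is unknown, so no counting intervals are given. Alternatives covered pseudocount, scaling, thresholds and filters.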

Additional observations from a re-analysis of the deposited data

How the results depend on the processing

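No paired analysis was possible because values of single libraries were not analysed here; for the same reason no replicate could be left out. Each of the 10 genes had 4 alternatives (pseudocounts of 0.1 and 5, centring, rescaling). All 40 log2 ratios kept their direction and lay within the range of the authors' bounds. The direction was nearly fixed in advance, because a pseudocount cannot change it and centring and rescaling shift by only about 0.07 and 0.16. For Txnrd1 the range, -6.10 to 6.66, is too wide to be a check. With a pseudocount of 5, 5 genes were at least 2-fold higher and 0 lower: Gclm, at 0.88, and Nqo1, at -0.95, dropped under the threshold, while the shares of all genes became 2.60% higher and 4.78% lower. A 1.5-fold threshold gave 2 lower genes (Nqo1 and Sod2) against 16.6% higher and 22.1% lower among all genes. A 4-fold threshold left 1 higher gene, Mt2, and 0 lower, against 1.16% and 1.32%. Hmox1, with a plain ratio of 4.35, fell under it through the added 1 FPKM. Its log2 ratio was 1.94 with that pseudocount and 2.10 with a pseudocount of 0.1. Requiring bounds 1.5-fold apart left 2 higher genes, Hmox1 and Mt2, and 0 lower, against 2.92% and 3.16%. Without a filter on low values the shares of all genes were 1.80% higher and 2.46% lower at 2-fold, and 2.18% higher and 2.49% lower by separate bounds, since genes near 0 enter the total. The shares under the members' settings were added after seeing the data. After rescaling, 53.7% of the 2-fold genes were higher in place of 41%, and by separate bounds 55.3% in place of 41.7%. The glutathione median turned to 0.041 on centring and 0.12 on rescaling. The median of the list of reactive oxygen sources was 1.93 with a pseudocount of 0.1 and 0.63 with 5. The other 36 list medians kept their sign and moved less than a typical bound. The missing spread between libraries limits every result.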
